A study of Mus musculus with 66 samples.

Results

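Wdr45 and the autophagy machinery of mouse embryonic stem cells were described in cells carrying a deletion at Praf2, the gene next to Wdr45 on chromosome X. The set was chosen by gene name, with earlier results of these data known. It holds 40 of the 55487 gene identifiers in the RNA tables, and each of the 40 was found by its symbol. They are the 4 mammalian PROPPIN genes (Wdr45, Wdr45b, Wipi1 and Wipi2), the kinase, lipid kinase, membrane supply, conjugation, ATG8 and cargo receptor genes of autophagy, and Tbc1d25. All 40 passed the filter on low counts. For 39 of them the filter's cutoff of 0.693 CPM (normalised counts scaled by TMM library size) was reached in 2 or more wildtype libraries, whereas Atg10 passed through GDel2.

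All libraries came from untreated E14 cells, an established mouse embryonic stem cell line, kept in serum with LIF and with inhibitors of GSK and MEK. Wildtype had 3 libraries, and the genotype that the labels call Praf2 G4 Deletion had 4, of which 2 are named GDel1 and 2 are named GDel2. G4 stands for a G-quadruplex, a four-stranded fold of guanine-rich nucleic acid. The labels give neither the bases removed nor whether GDel1 and GDel2 are separate clones, and they do not say that replicates were separate cultures, so p-values measure the spread between these libraries, which may be technical.

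Autophagy encloses cytoplasm in a double membrane, the autophagosome, and delivers it to the lysosome. The ULK1 kinase complex starts the process, the lipid kinase complex around BECN1 marks the site with phosphatidylinositol 3-phosphate, and PROPPIN proteins read that lipid. Conjugation enzymes then attach ATG8 proteins to the growing membrane, where receptors hand over cargo. Loss of human WDR45 causes a neurodegenerative disease with iron in the basal ganglia. In stem cells autophagy is known for renewing mitochondria and other cell contents.

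The libraries held 12316853 to 18762704 expected counts. Mitochondrial transcripts took 9.91% of counts in GDel1 replicate 1 and 9.60% in GDel2 replicate 2, against 4.83% to 6.89% in the other 5 libraries. All 8 pluripotency markers were above 1 TPM in each group. Their summed level was 1738 to 2057 TPM in wildtype, 1425 to 2051 TPM in GDel1 and 1317 to 1630 TPM in GDel2, where it lay below the wildtype range. Feeder, primitive endoderm, trophoblast, mesendoderm and neuroectoderm markers were mostly under 1 TPM. In GDel2 and in wildtype, summed feeder markers were at 2.54 to 2.91 and 1.22 to 1.67 TPM. Summed primitive endoderm markers were at 0.84 to 1.59 and 0.38 to 0.75 TPM in the same order. The trophoblast sum was 3.02 to 4.96 TPM in GDel2, 4.26 to 6.03 TPM in GDel1 and 5.73 to 7.28 TPM in wildtype. Of its markers, Cdx2, Elf5, Gata3, Hand1 and Krt7 were each under 1 TPM. Summed mesendoderm markers were at 3.68 to 4.18 TPM in GDel2 and 1.22 to 1.32 TPM in wildtype. The neuroectoderm sum was 41.3 to 42.1 TPM in GDel2 and 14.6 to 19.0 TPM in wildtype, with Sox1, Pax6 and Zic1 each under 1 TPM. In GDel1 the feeder sum was 0.66 to 0.79 TPM and the primitive endoderm sum 0.32 to 0.49 TPM. The mesendoderm sum there was 0.89 to 1.14 TPM and the neuroectoderm sum 13.7 to 15.0 TPM. The part of these markers in the differences described for GDel2 was not tested. In bulk RNA, fewer cells of a type and less RNA per cell cannot be told apart.

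Praf2 lies just downstream of Wdr45 on the same strand. In the RefSeq annotation of GRCm38.p6, Wdr45 (ENSMUSG00000039382) covers bases 7721987 to 7728201 of chromosome X, and Praf2 (ENSMUSG00000031149) covers bases 7728571 to 7731063. The start of Praf2 is thus 370 bases past the end of Wdr45. The 250 bases before the Praf2 start fall within that gap and are shown because they separate the gene named in the deletion from Wdr45. They hold 10 runs of 3 or more G or C, given in capitals. They are RefSeq's reference bases, and the sources used here do not say which of them the deletion removed.
Praf2, chrX:7728321-7728570, plus strand: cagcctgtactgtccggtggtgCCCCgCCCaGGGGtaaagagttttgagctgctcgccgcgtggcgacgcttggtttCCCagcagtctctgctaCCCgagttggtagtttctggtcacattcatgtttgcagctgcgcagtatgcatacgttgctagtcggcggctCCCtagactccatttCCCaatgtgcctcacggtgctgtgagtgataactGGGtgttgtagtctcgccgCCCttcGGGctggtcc

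The table's upstream window for Wdr45 lies inside the gene's own RefSeq span. A 30-base stretch of it, picked for its G runs, is shown with these runs in capitals. The window held no match to the G-quadruplex pattern given further on.
Wdr45, chrX:7722790-7722819, plus strand: tatGGGttttttttttGGGaGGGGGtGGGG

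The RefSeq table held 39 windows for 33 of the 40 genes, matched by symbol. In 17 of them the table's start was the first base of the gene's RefSeq span, and in the other 22 it lay inside that span. CACGTG, the core of the site that MiT transcription factors such as TFE3 are known to bind, was searched in the 250 bases before each of these starts, on both strands. It was in 3 of the 39 windows (Atg3, Atg5 and Atg7), against 6.02% of all 32851 windows. The start used was the first base of the span for Atg3 and lay 17 bases inside it for Atg5, but for Atg7 it lay 27969 bases inside, so the Atg7 match lies deep within the gene. The Atg5 match lies just inside the edge of its span. These 3 sites are shown because they belong to conjugation genes described further on, with CACGTG in capitals.
Atg3, chr16:45158735-45158764, plus strand: CACGTGtcctgggagagtcgagtCACGTGa
Atg5, chr10:44268309-44268338, plus strand: agggcggagcgcttgcCACGTGgtcttggt
Atg7, chr6:114670952-114670981, plus strand: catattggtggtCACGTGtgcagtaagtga

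The Atg3 stretch holds 2 matches, and its second is part of the longer form TCACGTGA, which was in 1 of the 39 windows and in 0.785% of all windows and which contains CACGTG. A G-quadruplex pattern of 4 runs of 3 or more G with loops of 1 to 7 bases was in the windows of Atg10, Atg2b and Calcoco1, 3 of 39, and in 16.7% of all windows. These matches describe letters in the reference only.

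By level per length in wildtype, 2 ATG8 genes were the most abundant of the set (values are mean ± SD, n = 3). Gabarapl2 was at 121 ± 9.57 TPM and Gabarap at 116 ± 13.7 TPM, a difference within their SDs. The receptors Nbr1 at 65.8 ± 6.14 TPM and Tax1bp1 at 54.8 ± 8.14 TPM followed, and their ranges over the 3 libraries overlapped. Ulk1, at 49.9 ± 5.50 TPM, was the most abundant of its complex. Wdr45 ranked 11 of 40 at 19.8 ± 3.65 TPM, next to Wipi2 at 21 ± 1.83 TPM and Atg13 at 19.4 ± 1.84 TPM, from which it did not differ beyond the SDs. Ulk2 at 0.373 ± 0.0306 TPM and Atg10 at 0.257 ± 0.136 TPM were the lowest of the 40.

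Praf2, whose product is a small membrane protein that binds prenylated Rab GTPases, was checked first because it is the gene named in the genotype. It was at 27.5, 28.8 and 30.6 CPM in wildtype, 10.1 and 9.26 CPM in GDel1 and 13.1 and 14.1 CPM in GDel2. Every deletion library was below every wildtype library. It fell in GDel1 (log2 fold change -1.59 ± 0.11 SE, adjusted p = 0.00206). It also fell in GDel2 (log2 fold change -1.09 ± 0.11 SE, adjusted p = 2.01e-04).

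Wdr45 itself, which encodes the PROPPIN known as WIPI4, fell in GDel2 and not detectably in GDel1. It was at 25.8, 26.6 and 22.9 CPM in the wildtype libraries, at 27.5 and 21.7 CPM in GDel1 and at 13.97 and 13.1 CPM in GDel2. The GDel1 libraries lay on either side of the wildtype range, while both GDel2 libraries were below all others. In GDel2 it was 1.86-fold lower (log2 fold change -0.89 ± 0.14 SE, adjusted p = 0.00150). GDel1 did not pass the test (log2 fold change -0.03 ± 0.13 SE, adjusted p = 0.903). The difference between the deletions, tested itself, passed (GDel2 against GDel1, log2 fold change -0.86 ± 0.15 SE, adjusted p = 0.00339). The GDel2 call held in each of 7 fits that left out 1 library, and it held without the libraries of high mitochondrial share (-0.84, adjusted p = 1.75e-04), when each deletion had 1 library whose spread was assumed to be that of the others.

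The scale mattered for the difference between the deletions. In TPM, Wdr45 was at 23.4, 19.8 and 16.1 in wildtype, 14.8 and 11.2 in GDel1 and 12.4 and 8.40 in GDel2. All deletion libraries were then below the wildtype range, and GDel1 and GDel2 overlapped. With limma on log2(TPM + 1), Wdr45 differed from wildtype by -0.57 in GDel1 (adjusted p = 0.0703) and by -0.88 in GDel2 (adjusted p = 0.0142), and GDel2 differed from GDel1 by -0.31 (adjusted p = 0.350). On that scale the median of all genes tested was itself at -0.30 in GDel1, at -0.05 in GDel2 and at 0.24 for GDel2 against GDel1. Relative to those medians, Wdr45 was at -0.27 in GDel1, -0.83 in GDel2 and -0.55 for GDel2 against GDel1. The estimated transcript length of Wdr45, an average over its isoforms, was 958, 969 and 1032 bases in wildtype, 1004 and 1108 in GDel1 and 897 and 1033 in GDel2. These lengths overlapped between groups apart from GDel1 replicate 2, the longest, and GDel2 replicate 1, the shortest. Lengths were also compared over the 11878 tested genes with more than 1 transcript. In GDel1 replicate 2, 27.8% of them had a length more than 0.1 (log2) above the wildtype mean, against 8.49% to 15.4% in the other libraries. The part of length in the TPM values was not tested.

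**Figure D1:**
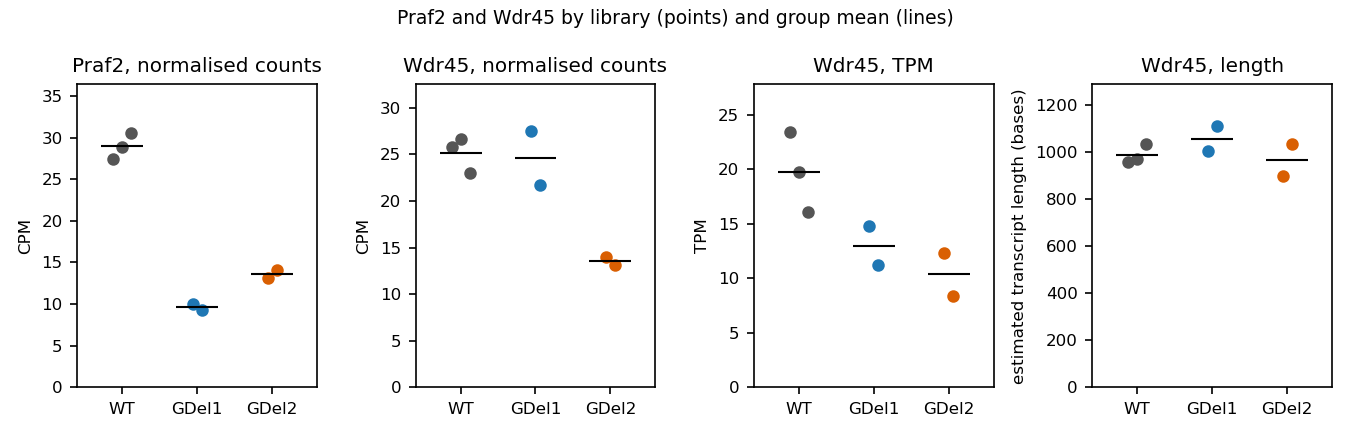
Praf2 in CPM and Wdr45 in CPM, in TPM and as estimated transcript length in bases, with 1 point per library and a line at each group mean; axes start at 0. Wdr45 counts in GDel2 (13.97 and 13.1 CPM) sit below all wildtype and GDel1 libraries, whereas its TPM values in GDel1 and GDel2 overlap.

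The other 3 PROPPIN genes did not share 1 pattern. Wdr45b, the closest relative of Wdr45 (WIPI3) and the most abundant of the 4 in TPM, was at 116, 116 and 112 CPM in wildtype, 128 and 107 CPM in GDel1 and 122 and 127 CPM in GDel2. Wipi2, which recruits the conjugation machinery through ATG16L1, was at 94.6, 98.6 and 94.1, 94.3 and 91.1 and 87.1 and 79.7 CPM in the same order of groups. Neither passed in GDel2 (Wdr45b 0.12, adjusted p = 0.368; Wipi2 -0.20, adjusted p = 0.0975). Wipi1, the lowest of the 4 in TPM, was at 6.70, 6.99 and 7.14 CPM in wildtype, 5.80 and 5.05 CPM in GDel1 and 3.71 and 4.19 CPM in GDel2, with no overlap between the groups. It fell in GDel2 (log2 fold change -0.81 ± 0.16 SE, adjusted p = 0.00530) and was at -0.36 in GDel1 (adjusted p = 0.187). Wdr45b and Wipi1 (both chromosome 11) and Wipi2 (chromosome 5) lie away from Praf2.

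In GDel2 against wildtype, 23 of the 40 genes passed, 10 higher and 13 lower, which is 57.5% of the set beside 33.1% of all 15421 genes tested (17.4% higher and 15.6% lower). Without Atg10, which was tested only because it reached the cutoff in GDel2, 22 of 39 passed (56.4%), 9 of them higher. The median log2 fold change of the 40 was -0.11, beside 0.01 over all genes. In GDel1 against wildtype edgeR called 0 of the 40, beside 0.376% of all genes, with 7 of the 40 (17.5%) at an unadjusted p under 0.05, beside 24.5% of all genes. DESeq2 called 3 of the 40 in GDel1 (Ulk1, Atg9a and Tbc1d25, all lower), beside 6.44% of all genes. Both comparisons use the same wildtype libraries. In the direct test of GDel2 against GDel1, 6 of the 40 (Atg10 among them) were higher and 7 lower (32.5%), beside 27.7% of all genes (14.8% higher and 12.8% lower), so that share was near the background. On log2(TPM + 1) the splits were 0 higher and 10 lower in GDel1 (21.1% of all genes called), 3 and 9 in GDel2 (16.9%), and 8 and 0 for GDel2 against GDel1 (24.3%), with the shifts of the median given above. On that scale 11 of the 22 genes called in GDel2 other than Wdr45 kept their direction but lost their call (Wipi1, Atg14, Atg9a, Vmp1, Atg4a, Atg4d, Atg5, Map1lc3b, Gabarapl2, Sqstm1 and Tax1bp1). For GDel2 against GDel1, the calls of Atg13, Atg14, Uvrag, Map1lc3a and Calcoco1 were lost in the same way. With DESeq2 the GDel2 calls of Vmp1, Atg4a, Atg4d, Atg5, Atg10 and Map1lc3b were lost (adjusted p = 0.0582 to 0.0994), as were those of Uvrag, Atg10 and Sqstm1 between the deletions (0.0772 to 0.140). Without both libraries of high mitochondrial share, 19 of the 22 genes called in GDel2 other than Wdr45 kept their call (36.5% of all genes called), and 11 of the 40 were called in GDel1 (4 higher and 7 lower, beside 26.3% of all genes), with 1 library left per deletion. Leaving out GDel2 replicate 2 alone reduced the calls in GDel2 to 5 higher and 4 lower (16.5% of all genes called). The calls in GDel2 against GDel1 fell to 8 without GDel2 replicate 1 (17.4%) and to 8 without GDel2 replicate 2 (16.2%).

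**Figure D2:**
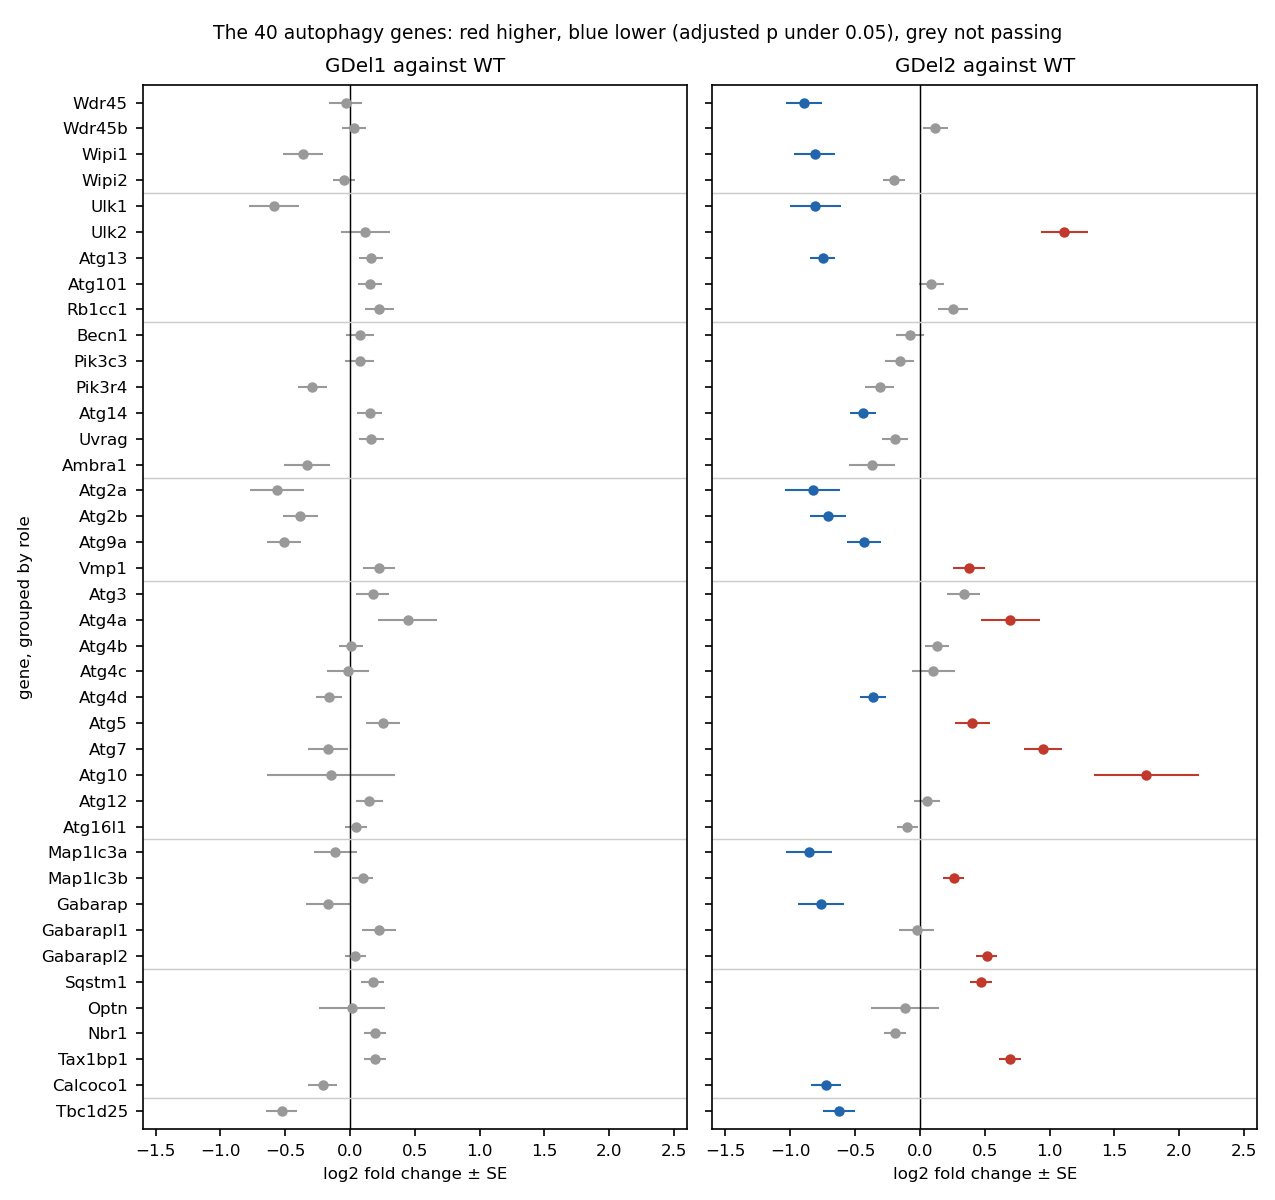
Log2 fold change with its standard error for each of the 40 genes in GDel1 (left) and GDel2 (right) against wildtype, grouped by role from PROPPIN genes at the top to Tbc1d25 at the bottom. No gene is coloured in GDel1, while 10 are red (higher) and 13 blue (lower) in GDel2, with both colours within the ULK, membrane supply, conjugation, ATG8 and receptor groups.

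Of the 5 genes of the ULK complex, 1 rose and 2 fell in GDel2 (60.0%, beside 33.1% of all genes). Ulk1, the kinase that starts autophagy, was at 299, 293 and 273 CPM in wildtype, 162 and 221 CPM in GDel1 and 200.3 and 129.5 CPM in GDel2. All 4 deletion libraries were below wildtype, lowest in the 2 of high mitochondrial share. Ulk1 fell in GDel2 (log2 fold change -0.81 ± 0.20 SE, adjusted p = 0.0173), a call lost without GDel2 replicate 2 (-0.53, adjusted p = 0.0812), and was at -0.59 in GDel1 (adjusted p = 0.125). Its paralog Ulk2, low in these cells, was at 2.65, 3.65 and 3.41 CPM in wildtype, 3.46 and 3.59 CPM in GDel1 and 6.94 and 7.16 CPM in GDel2, where it rose (log2 fold change 1.11 ± 0.18 SE, adjusted p = 0.00196). The part of the mitochondrial share was not tested. The 2 kinases thus differed from wildtype in opposite directions in GDel2.

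Atg13, the adaptor that links the kinase to its scaffold, was at 67.4, 65.9 and 64.6 CPM in wildtype, 71.3 and 76.2 CPM in GDel1 and 41.98 and 36.4 CPM in GDel2. GDel1 lay above and GDel2 below the wildtype range. Atg13 fell in GDel2 (log2 fold change -0.75 ± 0.10 SE, adjusted p = 6.09e-04). It had the lowest adjusted p of the set against GDel1 (log2 fold change -0.91 ± 0.10 SE, adjusted p = 4.42e-04). Atg101, a partner of ATG13, and Rb1cc1, the scaffold FIP200, were at 0.09 and 0.26 in GDel2 and did not pass.

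Of the 6 genes of the lipid kinase complex, Atg14 passed in GDel2 against wildtype (16.7%, beside 33.1% of all genes), and all 6 estimates were below 0 (-0.44 to -0.08). Atg14, the subunit that directs the complex to autophagosome formation, was at 48.6, 51.03 and 51.2 CPM in wildtype, 52 and 59.6 CPM in GDel1 and 39.1 and 35.3 CPM in GDel2, with no overlap between the groups. It fell in GDel2 (log2 fold change -0.44 ± 0.10 SE, adjusted p = 0.0104), a call lost without GDel2 replicate 2 (-0.37, adjusted p = 0.0827), and was lower than in GDel1 (log2 fold change -0.59 ± 0.11 SE, adjusted p = 0.00472).

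Uvrag, the subunit of the alternative complex that acts on endosomes, was at 22.4, 23.9 and 22.1 CPM in wildtype, 26.2 and 24.9 CPM in GDel1 and 19.5 and 20.5 CPM in GDel2. It passed between the deletions (log2 fold change -0.35 ± 0.11 SE, adjusted p = 0.0384) and not against wildtype, and the call was lost in 6 of the 7 fits that left out 1 library, all but that without GDel1 replicate 2 (adjusted p = 0.0592 to 0.118). Pik3r4, the regulatory subunit VPS15 and the most abundant of the 6 in TPM, was at 83.02, 88.1 and 78.97 CPM in wildtype, 66.9 and 69.4 CPM in GDel1 and 75.1 and 59.5 CPM in GDel2, below the wildtype range in every deletion library, and did not pass (GDel2 -0.31, adjusted p = 0.0645). The scaffold Becn1, the kinase Pik3c3 and the regulator Ambra1 were at -0.08, -0.16 and -0.37 in GDel2, none of which passed.

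All 4 genes of membrane supply passed in GDel2, 3 lower and 1 higher, beside 33.1% of all genes called. Atg2a and Atg2b encode channels that carry lipid into the growing membrane and bind WIPI4, the Wdr45 product. Atg2a was at 91.8, 91.2 and 88.9 CPM in wildtype, 49.3 and 73.2 CPM in GDel1 and 61.9 and 40.5 CPM in GDel2. Atg2b was at 111, 115 and 108, 73.3 and 96.9 and 75.2 and 60.9 CPM in the same order of groups. Both were lower than every wildtype library in all 4 deletion libraries. As for Ulk1, they were lowest in GDel2 replicate 2 and next in GDel1 replicate 1, the libraries of high mitochondrial share. The part of that share was not tested. Atg2a and Atg2b fell in GDel2 (Atg2a, log2 fold change -0.82 ± 0.21 SE, adjusted p = 0.0212; Atg2b, log2 fold change -0.71 ± 0.14 SE, adjusted p = 0.00478). In GDel1 they were at -0.56 (adjusted p = 0.156) and -0.39 (adjusted p = 0.130), which did not pass. Without GDel2 replicate 2 both calls were lost (Atg2a -0.55, adjusted p = 0.114; Atg2b -0.57, adjusted p = 0.0521), and Atg2a was also lost without any 1 of the wildtype replicates (adjusted p = 0.0514 to 0.0546).

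Atg9a, the scramblase of the vesicles that seed autophagosomes, was at 34.4, 38.04 and 33.6 CPM in wildtype, 23.9 and 25.8 CPM in GDel1 and 29.9 and 22.7 CPM in GDel2, all deletion libraries lying below wildtype. Here too the lowest libraries were those of high mitochondrial share. Atg9a was at -0.43 in GDel2 (adjusted p = 0.0349) and at -0.51 in GDel1 (adjusted p = 0.0707). Vmp1, a scramblase of the endoplasmic reticulum, was at 28.4, 29.9 and 31.1 CPM in wildtype, 38.5 and 31.3 CPM in GDel1 and 35.1 and 42.4 CPM in GDel2. It was higher in GDel2 (log2 fold change 0.38 ± 0.12 SE, adjusted p = 0.0443). The GDel2 calls of both genes were lost without any 1 wildtype replicate or without GDel2 replicate 2, where Atg9a was at -0.24, adjusted p = 0.235 and Vmp1 at 0.23, adjusted p = 0.312.

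Of the 9 conjugation genes other than Atg10, 3 rose and 1 fell in GDel2 (44.4%, beside 33.1% of all genes). None of the 10 passed in GDel1, where 0 of the 10 were at an unadjusted p under 0.05, beside 24.5% of all genes. Atg7, the E1-like enzyme that activates ATG8 proteins and ATG12, was at 6.92, 8.41 and 6.93 CPM in wildtype, 6.04 and 7.08 CPM in GDel1 and 14.6 and 14.1 CPM in GDel2. GDel2 stood clear of both other groups. It rose 1.93-fold (log2 fold change 0.95 ± 0.15 SE, adjusted p = 0.00149), and it was also above GDel1 (log2 fold change 1.12 ± 0.16 SE, adjusted p = 0.00160). Atg10, the E2-like enzyme for ATG12, was at 0.736, 0.309 and 0.368 CPM in wildtype, 0.402 and 0.416 CPM in GDel1 and 1.66 and 1.45 CPM in GDel2. Atg10 reached the cutoff of the filter in 1 wildtype, 0 GDel1 and 2 GDel2 libraries, so it was tested only through the group in which it was high. Its difference, given as a description, was 1.75 ± 0.40 SE on the log2 scale in GDel2 (adjusted p = 0.0108) and 1.90 against GDel1 (adjusted p = 0.0162), on 21 and 20 counts in the GDel2 libraries. Without either GDel2 replicate the call against wildtype was lost (adjusted p = 0.0590 and 0.0690), and the call against GDel1 was lost without GDel1 replicate 2 or either GDel2 replicate (adjusted p = 0.0600 to 0.0864).

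Smaller differences were seen in the proteases and in the ATG12 conjugate. Atg4a, a protease that trims ATG8 proteins, was at 2.72, 3.53 and 4.73 CPM in wildtype, 5.31 and 4.79 CPM in GDel1 and 6.0 and 6.0 CPM in GDel2 (log2 fold change 0.70 ± 0.23 SE, adjusted p = 0.0431). Its relative Atg4d was at 32.1, 27.96 and 32.4 CPM in wildtype, 27.6 and 27.5 CPM in GDel1 and 24.6 and 23.3 CPM in GDel2 (log2 fold change -0.36 ± 0.10 SE, adjusted p = 0.0269). These 2 proteases thus differed in opposite directions, each with GDel2 outside the wildtype range. In both genes the GDel1 libraries also lay outside that range, on the same side. Atg5, which is joined to ATG12 to form the ligase that attaches ATG8 to lipid, was at 30.2, 31.7 and 32.5 CPM in wildtype, 43.6 and 31.9 CPM in GDel1 and 40.1 and 43.3 CPM in GDel2 (log2 fold change 0.41 ± 0.13 SE, adjusted p = 0.0443). In Atg5 the highest library was GDel1 replicate 1, while GDel1 replicate 2 lay within the wildtype range. The 3 calls in GDel2 were lost without either GDel2 replicate or without certain wildtype replicates (1 or 2 for Atg4a, 1 or 3 for Atg4d, any 1 for Atg5), at adjusted p = 0.110 to 0.163 for Atg4a, 0.0661 to 0.142 for Atg4d and 0.0859 to 0.218 for Atg5. Atg16l1, the ligase subunit that WIPI2 recruits and the most abundant of the 10 in TPM, was at 63.8, 65.2 and 60.7 CPM in wildtype, 66.7 and 63.9 CPM in GDel1 and 59.3 and 58.9 CPM in GDel2 (-0.10, adjusted p = 0.408). Atg3 (0.34), Atg4b (0.13), Atg4c (0.10) and Atg12 (0.06) did not pass either.

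The ATG8 genes, whose products coat the autophagosome and bind receptors, split evenly: 2 of 5 rose and 2 fell in GDel2. That is 80.0% called, beside 33.1% of all genes. Gabarapl2 (GATE-16), the most abundant in TPM, was at 151, 158 and 156 CPM in wildtype, 167 and 152 CPM in GDel1 and 224 and 218 CPM in GDel2. The GDel2 libraries stood above all others, and the gene rose (log2 fold change 0.52 ± 0.08 SE, adjusted p = 0.00166). The test against GDel1 also passed (log2 fold change 0.48 ± 0.09 SE, adjusted p = 0.00522). Map1lc3b, the LC3B gene whose lipidated product is the common marker of autophagosomes, was at 94.7, 94.5 and 95.5 CPM in wildtype, 105 and 97.8 CPM in GDel1 and 111 and 116 CPM in GDel2. Its difference in GDel2 was 1.20-fold (log2 fold change 0.26 ± 0.08 SE, adjusted p = 0.0340), and that call was lost without either GDel2 replicate or any 1 wildtype replicate (adjusted p = 0.0583 to 0.159).

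Map1lc3a, the LC3A gene, was at 12.9, 14.5 and 15.1 CPM in wildtype, 12.3 and 13.9 CPM in GDel1 and 9.39 and 6.36 CPM in GDel2, lowest in GDel2 replicate 2. It fell in GDel2 (log2 fold change -0.85 ± 0.18 SE, adjusted p = 0.00703), also by the test against GDel1 (log2 fold change -0.74 ± 0.19 SE, adjusted p = 0.0217). Without GDel2 replicate 2 these were at -0.60, adjusted p = 0.0558 and -0.49, adjusted p = 0.114, and the second call was also lost without GDel1 replicate 2 (adjusted p = 0.0562). Gabarap was at 146, 144 and 135 CPM in wildtype, 156 and 96.7 CPM in GDel1 and 85.6 and 81.5 CPM in GDel2. The GDel1 libraries lay apart, replicate 1 above and replicate 2 below the wildtype range. Gabarap fell in GDel2 (log2 fold change -0.76 ± 0.18 SE, adjusted p = 0.0134), a call lost without either GDel2 replicate (adjusted p = 0.0539 to 0.101). Gabarapl1 was at -0.03 in GDel2 and did not pass.

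Of the 5 cargo receptors, 2 rose and 1 fell in GDel2 (60.0%, beside 33.1% of all genes). Tax1bp1, a receptor for ubiquitin-marked cargo, was at 140.1, 145 and 144 CPM in wildtype, 169 and 157 CPM in GDel1 and 219 and 243 CPM in GDel2, with no overlap between the 3 groups. It rose in GDel2 with the lowest adjusted p of the set against wildtype (log2 fold change 0.69 ± 0.08 SE, adjusted p = 4.59e-04). It was higher there than in GDel1, too (0.50, adjusted p = 0.00476). Sqstm1 (p62), which gathers ubiquitin-marked protein into condensates, was at 82.1, 78.3 and 80.7 CPM in wildtype, 94.8 and 86.6 CPM in GDel1 and 107 and 116 CPM in GDel2, again without overlap. It rose in GDel2 against wildtype (log2 fold change 0.47 ± 0.08 SE, adjusted p = 0.00338). Against GDel1 it passed (0.30, adjusted p = 0.0448) but not in 6 of the 7 fits that left out 1 library, all but that without GDel1 replicate 1 (adjusted p = 0.0605 to 0.179).

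Calcoco1, a receptor for the endoplasmic reticulum and Golgi, was at 24.2, 23.6 and 24.1 CPM in wildtype, 22.7 and 18.8 CPM in GDel1 and 14.6 and 14.5 CPM in GDel2. It fell in GDel2 (log2 fold change -0.72 ± 0.11 SE, adjusted p = 0.00178) and was below GDel1 (-0.51, adjusted p = 0.0162), the latter call being lost without either GDel2 replicate (adjusted p = 0.0534 to 0.0708). On log2(TPM + 1) Calcoco1 was at -0.04 between the deletions (adjusted p = 0.899). Nbr1, a relative of p62 and the receptor most abundant in TPM, was at 147, 158 and 153 CPM in wildtype, 179.9 and 169.5 CPM in GDel1 and 127 and 140.0 CPM in GDel2, so that GDel1 lay above and GDel2 below the wildtype range. Neither passed against wildtype, but GDel2 was lower than GDel1 (-0.39, adjusted p = 0.0162), a call lost without GDel2 replicate 1 (-0.33, adjusted p = 0.0664) and opposite in sign on log2(TPM + 1) (0.49, adjusted p = 0.123). Optn was at -0.11 in GDel2 and did not pass.

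**Figure D3:**
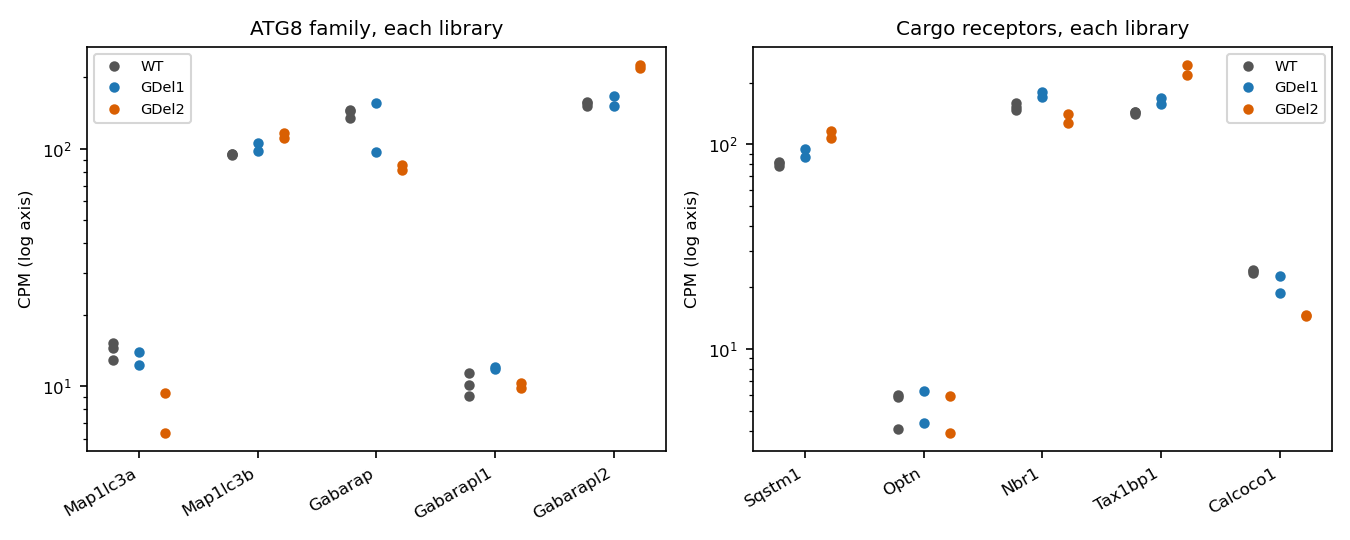
CPM of the 5 ATG8 genes (left) and 5 cargo receptors (right) on log axes, 1 point per library, coloured by group; CPM is not per length, so heights of different genes are not levels to compare. Gabarapl2, Sqstm1 and Tax1bp1 have both GDel2 points above all others, and Map1lc3a, Gabarap and Calcoco1 have them below.

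Tbc1d25, a Rab GTPase-activating protein that binds ATG8 proteins and acts on autophagosome fusion, lies on chromosome X at bases 8154470 to 8176181, 423 kb from the end of Praf2. It was at 35.6, 37.5 and 34.3 CPM in wildtype, 26.8 and 23.1 CPM in GDel1 and 25.6 and 20.9 CPM in GDel2. All 4 deletion libraries were below wildtype. It fell in GDel2 (log2 fold change -0.62 ± 0.12 SE, adjusted p = 0.00501), narrowly lost without GDel2 replicate 2 (-0.48, adjusted p = 0.0501). In GDel1 it was at -0.53 ± 0.12 SE with the lowest adjusted p of the 40 there (0.0607), and the deletions did not differ by the test (-0.10, adjusted p = 0.627).

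The median change around each gene was also compared in GDel2. Of the 9 genes other than Atg10 that rose, 6 lay where the median log2 fold change of all tested genes within 5 Mb was over 0.4, as did 28.2% of all genes that rose and 9.60% of all 13631 placed genes. Of the 17 that did not pass, 0 lay there, beside 5.97% of all genes that did not pass. A local median below 0 was common, with 60.0% of all placed genes and 74.5% of those that fell. It was found for all 13 members that fell (-0.20 to -0.02). It was also found for 11 of the 17 that did not pass, beside 63.0% of all genes that did not pass. The 6 genes with a local median over 0.4 were Tax1bp1 (0.50) and Atg7 (0.54) on chromosome 6, Gabarapl2 (0.51) and Map1lc3b (0.43) on chromosome 8, and Sqstm1 (0.61) and Ulk2 (0.45) on chromosome 11. Over whole chromosomes the GDel2 median was 0.51 for chromosome 6 (658 genes) and 0.44 for chromosome 8 (712 genes), 0.10 for chromosome 11 and 0.03 for chromosome X, while in GDel1 each of these 4 was between -0.02 and 0.04. Gabarapl2, at 0.52, differed from its chromosome's median by 0.07, Map1lc3b by -0.18 and Gabarapl1, also on chromosome 6, by -0.53. Atg7 exceeded its chromosome's median by 0.44 and Ulk2 by 1.01. Away from chromosomes 6 and 8, and without Atg10, 5 genes rose and 13 fell among 34 (52.9%), beside 32.4% of all genes there (14.8% higher and 17.6% lower). The median of all tested genes within 5 Mb of Wdr45 was -0.07, against its own -0.89. That median does not describe the closest genes. Praf2, Tfe3 (bases 7762530 to 7775202 of chromosome X) and Tbc1d25, the other genes described here within that distance, also fell in GDel2. The part of a gene's position in its change was not tested.

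**Figure D4:**
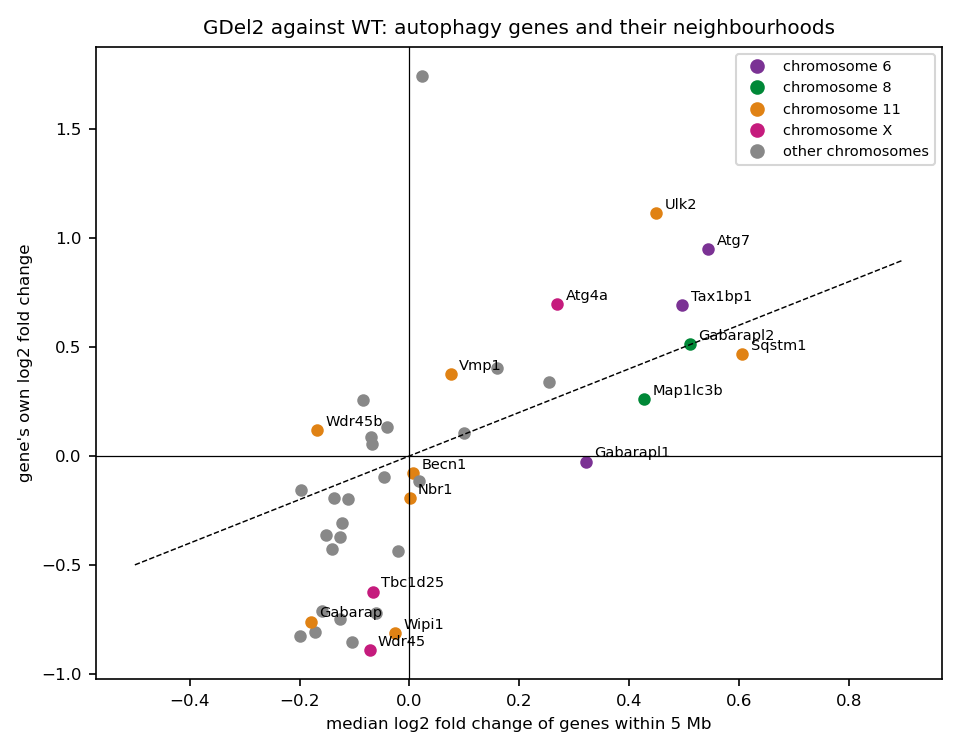
Each of the 40 genes in GDel2 against wildtype, with its own log2 fold change (vertical axis) against the median of all tested genes within 5 Mb (horizontal axis); the dashed line marks equality, and genes of chromosomes 6, 8, 11 and X are named. The 6 named genes above a neighbourhood median of 0.4 are all above 0, and Wdr45, Tbc1d25, Wipi1 and Gabarap are far below their neighbourhoods.

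With both deletions taken as 1 group of 4, edgeR called 0 of the 40 genes and 0 of all 15421 (0.0%), with 15 of the 40 (37.5%) and 19.0% of all genes at an unadjusted p under 0.05. In that fit the difference between GDel1 and GDel2 counts as error. DESeq2 called 5 of the 40, all lower (Ulk1, Atg2a, Atg2b, Atg9a and Tbc1d25), beside 6.28% of all genes. With limma on log2(TPM + 1) there were 0 of the 40 (0.013% of all genes). A contrast of the average of both deletions, from the fit with 3 groups, called 14 (4 higher and 10 lower), beside 20.4% of all genes. Wdr45 was at -0.40 (adjusted p = 0.404) as 1 group and at -0.46 (adjusted p = 0.0196) by the mean of both. In each of the 5 genes called by DESeq2, all 4 deletion libraries were below every wildtype library. These genes were picked by a test on the same libraries, so the separation is not a separate result. It was also seen in CPM for Wipi1, Pik3r4, Ambra1, Atg4d and Calcoco1, which DESeq2 did not call there.

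A wider list of 65 genes covers nutrient signalling, transcription, fusion with the lysosome, organelle receptors and other regulators, of which 63 were tested. In GDel2 10 rose and 18 fell (44.4%, beside the 33.1% of all genes), with a median of -0.07. In GDel1 edgeR called 0 of the 63 (26, or 41.3%, at an unadjusted p under 0.05, beside 24.5% of all genes; 8, or 12.7%, by DESeq2, beside 6.44%; and 20, or 31.7%, by limma on log2(TPM + 1), beside 21.1%), and GDel2 against GDel1 had 5 higher and 11 lower (25.4%, beside 27.7%). Leaving out 1 library moved the GDel2 count between 13 and 34, the lowest without GDel2 replicate 2, and it was 17 without wildtype replicate 1. On log2(TPM + 1) it was 2 higher and 6 lower (12.7%, beside 16.9% of all genes). The share of all genes called also moved between fits, so these counts do not describe the list alone.

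The 21 genes of nutrient signalling, which hold the ULK complex in check or release it, had 2 higher and 10 lower in GDel2 (57.1%, beside 33.1% of all genes). Sesn3 (-1.13) and Sesn2 (-0.79), sestrins that restrain mTORC1 when amino acids are scarce, fell, and Tbc1d7 (0.62), a subunit of the TSC complex that switches mTORC1 off, rose. Sesn1 (-0.68), Mtor (-0.47), Tsc1 (-0.34) and Tsc2 (-0.75), named after their values were seen, also fell. Against GDel1, the mTORC1 subunit Akt1s1 fell (-0.93).

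Of the MiT factors, which switch on autophagy and lysosome genes, Tfe3 on chromosome X was at 110.1, 97.5 and 91.7 CPM in wildtype, 72.4 and 74.99 CPM in GDel1 and 50.2 and 45.97 CPM in GDel2. The groups did not overlap, and it fell in GDel2 (log2 fold change -1.05 ± 0.10 SE, adjusted p = 1.77e-04) but did not pass in GDel1 (-0.44, adjusted p = 0.0607). Mitf, on chromosome 6 with a median of 0.68 over genes within 5 Mb, rose in GDel2 (log2 fold change 1.27 ± 0.11 SE, adjusted p = 8.78e-05). Tfeb was at -0.15 and did not pass. Among 14 fusion genes 4 rose and 4 fell in GDel2 (57.1%, beside 33.1% of all genes). The SNARE Ykt6 (0.93) and the HOPS subunit Vps39 (0.45) were among the higher and Tecpr1 (-0.77) among the lower. Stx17, the SNARE of the autophagosome, was higher than in GDel1 (0.78, adjusted p = 0.0303) but did not pass against wildtype. Among 14 organelle receptor and mitophagy genes 3 rose and 1 fell (28.6%, below the 33.1% of all genes). The gene that fell was the mitophagy kinase Pink1 (-1.04, adjusted p = 0.00399). Of 11 other regulators tested 2 fell (18.2%, again below all genes), the sorting nexin Snx30 (-0.60) and the membrane-bending protein Sh3glb1 (-0.49). Tfeb and Sh3glb1 were named after their values were seen.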

How the data were processed

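RNA from 7 libraries (3 wildtype, 2 GDel1, 2 GDel2) was used; the other 59 of 66 samples were not analysed here. Per the labels' protocols, ribosomal RNA was removed before directional libraries were built; the sources used here name neither the strand setting of the counting nor the annotation release. The submitters' processing notes name STAR, RSEM and mm10. The deposited expected counts are estimates per gene, not scaled for depth. The deposited TPM values were scaled by the authors for effective length and to a fixed sum. The deposited FPKM values, which the authors scaled per kilobase and library size, were not used. The deposited transcript lengths, in bases, are averages over isoforms. Counts were rounded and fitted with edgeR 4.0.16 in R 4.3.3: filterByExpr (minimum count 10, minimum total 15; 15421 genes), TMM, robust quasi-likelihood F test, Benjamini-Hochberg adjustment over all genes tested, threshold 0.05, two-sided. Adjusted p-values are edgeR's unless another tool is named. A fit held 3 groups; another took both deletions as 1 group.

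Alternatives were RLE factors, TMM factors without chromosomes 6, 8, 11 and Y, DESeq2 1.42.0, limma 3.58.1 on log2(TPM + 1), no filter, a minimum count of 30, each library left out, the libraries of high mitochondrial share left out, and a replicate block. The edgeR fits were also run on simulated counts in which both deletions shared the same changes. That run does not cover deletions that differ from each other. Positions and sequences came from RefSeq tables of GRCm38.p6, matched by symbol; local medians were over genes within 5 Mb. The members and lists were chosen with earlier results of these data known. Values in every library are given for the PROPPIN genes, Praf2, Tbc1d25, every member past the threshold in a 3-group contrast (at most 25) and the most abundant member of each role; of the wider list, up to 4 genes per direction and comparison are named by size.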

Additional observations from a re-analysis of the deposited data

Results flagged for a closer look

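The effects of the 2 deletions against wildtype differed by the test of GDel2 against GDel1 in edgeR for 13 of the 40 genes and for Praf2. GDel2 was higher than GDel1 for Atg10 (log2 fold change 1.90), Atg7 (1.12), Ulk2 (1.00), Tax1bp1 (0.50), Praf2 (0.50), Gabarapl2 (0.48) and Sqstm1 (0.30). It was lower for Atg13 (-0.91), Wdr45 (-0.86), Map1lc3a (-0.74), Atg14 (-0.59), Calcoco1 (-0.51), Nbr1 (-0.39) and Uvrag (-0.35). The Praf2 call was lost without GDel1 replicate 2 (0.43, adjusted p = 0.0602) or GDel2 replicate 2 (0.44, adjusted p = 0.0886). It was also lost with DESeq2 (adjusted p = 0.0633). Atg10 was tested only because it reached the filter's cutoff in the GDel2 libraries. Of these 14 genes, Nbr1 had the opposite sign on log2(TPM + 1).

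One library stood apart from the other deletion libraries in 1 of 41 genes examined: Becn1 was at 39.8 CPM in GDel1 replicate 2, against 32.7, 32.9 and 32.5 CPM in GDel1 replicate 1 and the GDel2 libraries. Chance flags about 1 in 20 groups of 4.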

How the results depend on the processing

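Wdr45 in GDel2 against wildtype stayed lower and past the threshold under every alternative run. With the replicate block it was at -0.96 (adjusted p = 0.0165), and the block reduced the calls to 11 of the 40 members and 10 of the wider list in GDel2, and to 6 and 9 for GDel2 against GDel1. Praf2 then did not pass in GDel1 (-1.54, adjusted p = 0.141). The labels do not say whether equal replicate numbers mark pairs, and no pairing was assumed. Correlations of deviations between same-numbered libraries were -0.21 to 0.10. They cannot decide the question, since in a group of 2 libraries the deviations mirror each other. On log2(TPM + 1), calls were 10 members and 20 of the wider list in GDel1, 12 and 8 in GDel2, and 8 and 7 for GDel2 against GDel1, where Wdr45 did not pass (-0.31) and Nbr1 reversed (0.49); the median of all genes moved by -0.30, -0.05 and 0.24. In GDel1, calls of members and wider list were 3 and 8 with DESeq2, 5 and 12 with no filter, and 11 and 23 without both libraries of high mitochondrial share. Leaving out 1 library gave 0 to 2 and 0 to 8 calls in GDel1, 9 to 25 and 13 to 34 in GDel2, and 8 to 15 and 10 to 20 for GDel2 against GDel1. Wdr45 in GDel1 then lay between -0.21 and 0.13. The share of all genes called also moved between the alternatives (in GDel1, 0.376% with edgeR and 6.44% with DESeq2). The counts of calls thus do not describe the members or the wider list alone. No share of all genes is given here for the replicate block, for no filter or for most fits that left out 1 library. Whether the lower counts with the block concern these lists or all genes was not tested. As 1 deletion group, DESeq2 called 5 and 12, the mean of both deletions called 14 and 18, and Wdr45 passed by that mean (-0.46). The cause of these changes was not tested. Ulk2, Atg4a and Atg10 rest on few counts, which limits their precision.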
